A study of Homo sapiens with 24 samples.

Results

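The interleukin-1 (IL-1) family members and receptors IL1A, IL1B, IL1RN, IL1R1, IL1RAP, IL18, IL33 and IL1RL1 were followed through RNA sequencing of metastatic clear cell renal cell carcinoma (ccRCC) cells in which the renal lineage transcription factor PAX8 was depleted. The 8 genes are 8 of the 26475 genes listed in each library and were taken by name. IL1B and IL1RAP were put forward because they were among the genes most elevated in shPAX8 libraries of both lines, so the values of all members against the sgNTC18 libraries are given here as a description, without a test. The tests concern what that choice did not use: the difference between both shPAX8 constructs, the difference between the cell lines, the lengths of the transcripts and the ratios between members. The series holds 24 libraries in 6 groups of 4 replicates. 786-M1A and OS-LM1, metastatic derivatives of the VHL-mutant ccRCC lines 786-O and OS-RC2, each carried sgNTC18, a non-targeting guide RNA, or shPAX8-1 or shPAX8-2, short hairpin RNAs against PAX8 in a doxycycline-inducible vector. All cells grew in RPMI with serum and were harvested before confluence. Each group is 1 line with 1 construct, and nothing states that replicates came from separate cultures, so p-values measure the spread between libraries, which may be technical. The sgNTC18 control is a guide RNA while both PAX8 constructs are hairpins, so depletion of PAX8, the kind of vector and the preparation of the libraries cannot be told apart in any comparison with sgNTC18.

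IL-1α (IL1A) and IL-1β (IL1B) are inflammatory cytokines that bind the same receptor chain, IL1R1. Signalling starts once the accessory chain IL1RAP joins the complex, and passes through MYD88, IRAK kinases, TRAF6 and the TAB and IKK proteins to NF-κB target genes. IL1RN, the receptor antagonist, occupies IL1R1 without recruiting IL1RAP, IL1R2 is a decoy receptor, and IL1RAP also serves IL1RL1, the receptor of IL-33. IL-1β and IL-18 are made as precursors that caspase-1 cleaves in inflammasomes, so transcript levels do not report on the released cytokine.

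The hairpins differ in where they meet the PAX8 transcript, and their guide strands are shown because most tests below set one hairpin against the other. Guide strands run 5′ to 3′, with the seed (bases 2 to 8) in capitals.
shPAX8-1: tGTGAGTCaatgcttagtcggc
shPAX8-2: tAGAGTTGtgttaataatggag
The shPAX8-1 site lies in coding sequence of exon 7 of 12 (chr2:113241690-113241711, GRCh38, minus strand of the gene) and the shPAX8-2 site in the 3′ untranslated region in exon 12 (chr2:113218122-113218143). Each full site occurred in the transcripts of 1 gene, PAX8. The 7-base complement of the seed was found in the 3′ untranslated region of 0 of 8 members for either hairpin, and in 6.8% (shPAX8-1) and 10.2% (shPAX8-2) of 19526 coding genes. This search leaves coding sequence and imperfect seed pairing aside.

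PAX8 transcript levels followed the labels. In 786-M1A the level in TPM, a unit that corrects for transcript length and library size, was 157 ± 17.1 with sgNTC18, 7.97 ± 2.00 with shPAX8-1 and 17.8 ± 0.957 with shPAX8-2 (mean ± SD, n = 4 here and throughout unless each library is given). In OS-LM1 it was 114 ± 6.73, 34.2 ± 5.05 and 33.5 ± 5.69. Between the hairpins PAX8 was thus 2.26-fold lower with shPAX8-1 in 786-M1A (log2 fold change -1.18, SE 0.15, edgeR quasi-likelihood adjusted p = 4.01e-05), whereas in OS-LM1 the same difference was -0.05 (SE 0.12, adjusted p = 0.797). Libraries held between 11634419 and 52059375 expected counts. In 786-M1A with shPAX8-1, replicates 1 and 2 stood apart from replicates 3 and 4: PAX8 was at 9.76 and 9.62 TPM in the first pair and at 6.5 and 5.99 in the second. Results that rest on these libraries are given with either pair left out where that mattered. Leukocyte-defining markers were near 0 in all 24 libraries, with at most 0.36 TPM for PTPRC, 0.09 for TYROBP and 0.13 for SPI1. The summed level of 12 myeloid markers nevertheless moved with the constructs, from 77.8 to 90.4 TPM with sgNTC18 to 197 to 335 TPM with either hairpin in OS-LM1, nearly all of it CD68, a lysosomal protein of many cell types. In 786-M1A this sum was 199.6 to 219.5 TPM with sgNTC18, 186 to 296 with shPAX8-1 and 293 to 371 with shPAX8-2. CD14 and FCER1G, at most 0.86 TPM with sgNTC18, reached up to 4.51 and 4.48 TPM with the hairpins. Other myeloid markers went the other way. ITGAM in OS-LM1 was at 1.31 to 1.77 TPM with sgNTC18 and 0.24 to 0.62 with the hairpins. CSF1R in 786-M1A was at 1.01 to 1.53 TPM with sgNTC18 and 0.43 to 0.96 with the hairpins. LYZ was at 4.85 TPM or less in every library. Markers of the renal epithelial lineage, 11 genes that include PAX8, summed to 839 to 933 TPM with sgNTC18 in 786-M1A, 177 to 262 with shPAX8-1 and 314 to 332 with shPAX8-2, and to 861 to 979, 901 to 1144 and 1096 to 1337 TPM in OS-LM1. In 786-M1A the mesenchymal marker PDGFRB was at 181 to 230 TPM with sgNTC18, 54.1 to 124 with shPAX8-1 and 196 to 268 with shPAX8-2. It was under 1 TPM in OS-LM1, where COL1A1 ran from 4.06 to 5.70 TPM with sgNTC18 to 27.01 to 58.29 with the hairpins. COL1A1 was at 3.31 TPM or less in 786-M1A. COL3A1 in OS-LM1 was at most 0.03 TPM with sgNTC18, 3.70 to 5.95 with shPAX8-1 and 0.75 to 1.07 with shPAX8-2. LUM in 786-M1A was at 0.39 to 1.45 TPM with sgNTC18 and 2.65 to 6.73 with the hairpins, and at most 2.14 in OS-LM1. Of 8 lymphoid and 6 endothelial markers only CD3D passed 1 TPM, at 2.30 or less. The part of these genes in the results below was not tested.

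**Figure D1:**
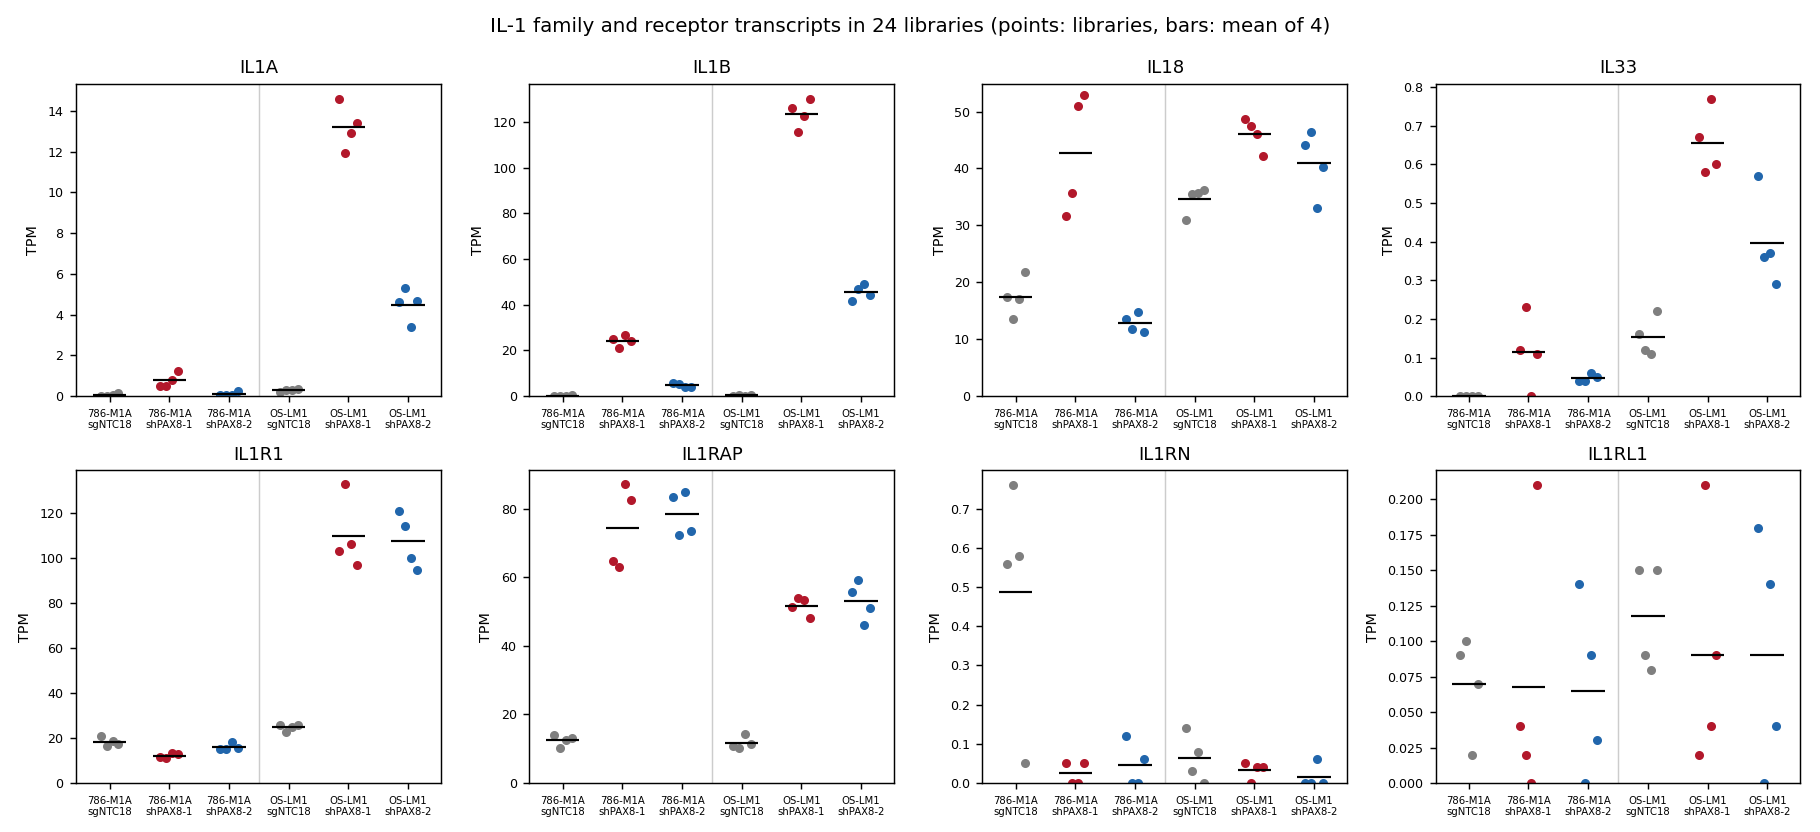
TPM of the 8 members in every library (points; bars are the mean of 4), grouped by line and construct, on linear axes that start at 0 and differ between panels. IL1B and IL1A were highest in OS-LM1 with shPAX8-1, IL1RAP was above 46 TPM in all 16 shPAX8 libraries, and IL1RN and IL1RL1 stayed under 1 TPM.

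IL1B, the agonist with the widest range, was near 0 in both control groups. In 786-M1A the 4 sgNTC18 libraries were at 0, 0.14, 0 and 0.38 TPM, which is 9 expected counts in all. The shPAX8-1 libraries were at 24.9, 21.0, 26.8 and 24.2 TPM, and the shPAX8-2 libraries at 5.61, 5.45, 4.14 and 4.01. In OS-LM1 sgNTC18 gave 0.27, 0.38, 0.23 and 0.40 TPM. There shPAX8-1 gave 126, 116, 123 and 130 TPM and shPAX8-2 gave 41.5, 46.7, 49.3 and 44.3. The groups therefore ran in the order OS-LM1 shPAX8-1, OS-LM1 shPAX8-2, 786-M1A shPAX8-1, 786-M1A shPAX8-2 and then sgNTC18, and the only neighbours whose libraries overlapped were the sgNTC18 groups. Relative to sgNTC18, the fitted log2 fold changes were 7.71 and 5.40 for shPAX8-1 and shPAX8-2 in 786-M1A, and 8.55 and 7.19 in OS-LM1. In 786-M1A they became 9.28 and 6.96 without sgNTC18 replicate 4 and 7.18 and 4.87 without sgNTC18 replicate 3. The size of these values rests on few control counts and the direction entered the choice of the gene. In such bulk RNA, more expressing cells and more RNA per cell cannot be told apart.

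IL1A, the other agonist of IL1R1, ran at lower levels with the same 3 groups on top. In OS-LM1 shPAX8-1 libraries it was at 14.6, 11.9, 12.9 and 13.4 TPM, in shPAX8-2 libraries at 4.62, 5.32, 3.40 and 4.66, and in sgNTC18 libraries between 0.20 and 0.33. In 786-M1A it reached 0.52, 0.51, 0.82 and 1.24 TPM with shPAX8-1, but only 0.07, 0.06, 0.05 and 0.27 with shPAX8-2, which overlapped the 0 to 0.16 TPM of sgNTC18. The 786-M1A values rest on 98, 12 and 10 expected counts over 4 libraries, respectively. Against sgNTC18 the log2 fold change was 5.46 and 3.97 in OS-LM1, and 3.61 and 0.85 (SE 0.62 and 0.83) in 786-M1A, for shPAX8-1 and shPAX8-2. The 786-M1A values became 4.48 and 1.72 without sgNTC18 replicate 4, and the shPAX8-2 value became 0.0041 without shPAX8-2 replicate 4.

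**Figure D2:**
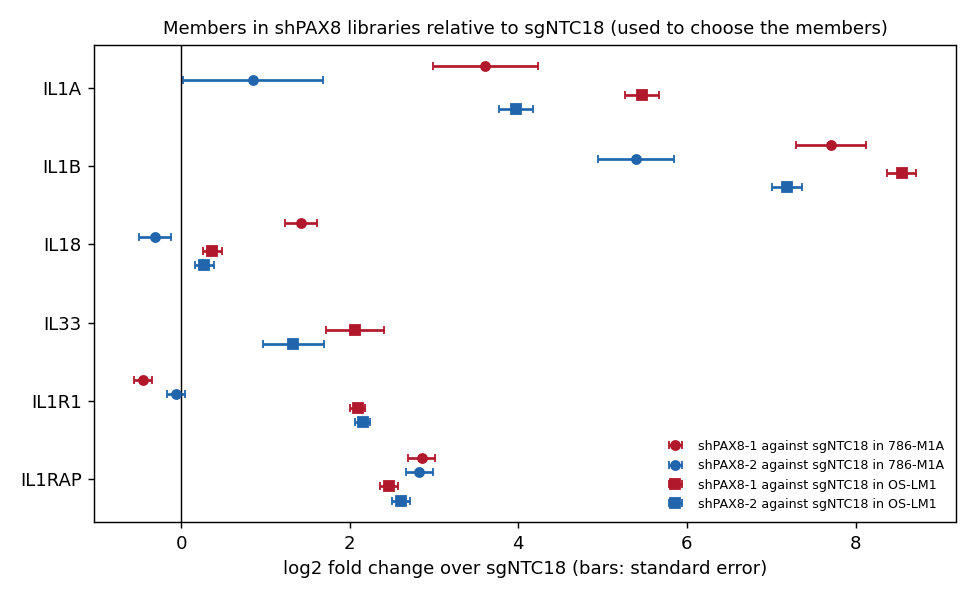
Fitted log2 fold change (x axis; bars are standard errors) of the members over sgNTC18 for each hairpin (red, shPAX8-1; blue, shPAX8-2) and line (circles, 786-M1A; squares, OS-LM1). IL1B and IL1RAP lie right of 0 in all 4 comparisons, IL1R1 only in OS-LM1, and each pair of comparisons within a line shares its 4 control libraries.

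The agonists separated the hairpins in both lines. PAX8 differed past the threshold between the hairpins in 786-M1A only, and its part in this was not tested. With shPAX8-1, relative to shPAX8-2, IL1B was 4.98-fold higher in 786-M1A (log2 fold change 2.32, SE 0.26, edgeR adjusted p = 1.78e-05) and 2.57-fold higher in OS-LM1 (1.36, SE 0.11, adjusted p = 2.18e-08). IL1A was 6.75-fold higher in 786-M1A (2.76, SE 0.61, adjusted p = 0.00238) and 2.81-fold higher in OS-LM1 (1.49, SE 0.15, adjusted p = 6.99e-07). In 786-M1A IL1A passed the count filter only through the shPAX8-1 libraries, where it is high. They held 17, 18, 23 and 40 expected counts, against 2, 2, 1 and 7 with shPAX8-2. Its call in that line is therefore given as a description. The 786-M1A value for IL1A became 3.60 (edgeR adjusted p = 0.00197) without shPAX8-2 replicate 4 and 2.15 (adjusted p = 0.0336) without shPAX8-1 replicates 3 and 4. In each line the 4 shPAX8-1 libraries lay above the 4 shPAX8-2 libraries for both genes, a separation that 18% of all genes tested showed in 786-M1A and 12.4% in OS-LM1. Of the 5 members tested in 786-M1A 4 were called, IL1A with the limit above among them, against a background of 47.1% of all genes tested. In OS-LM1 2 of 6 were called against 29.1%, so the count of members in OS-LM1 was near the background. IL1RN and IL1RL1 had too few counts in either line, and IL33 too few in 786-M1A. The sizes may be set beside the median absolute difference over all genes tested, 0.42 in 786-M1A and 0.25 in OS-LM1 on the log2 scale. Genes with low GC content tended to be higher with shPAX8-1 in 786-M1A (Spearman's rho -0.555 between GC content and log2 fold change over 13878 genes, which are not independent) and less so in OS-LM1 (rho -0.204). With that trend removed, the 786-M1A values were 2.24 for IL1B and 2.28 for IL1A, and the OS-LM1 values 1.32 and 1.42, and all 4 remained called.

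**Figure D3:**
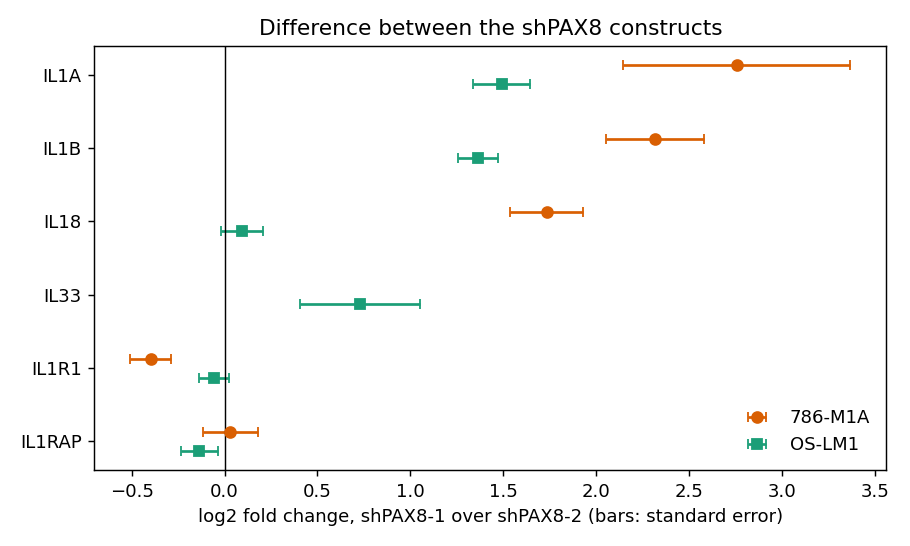
Log2 fold change of shPAX8-1 over shPAX8-2 (x axis; bars are standard errors) for the tested members in 786-M1A (circles) and OS-LM1 (squares). IL1A and IL1B lie above 1 in both lines, IL18 only in 786-M1A, and IL1RAP lies near 0 in both.

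IL18, which signals through its own receptor pair, depended on the hairpin in 786-M1A. It was at 31.6, 35.8, 51.0 and 52.8 TPM with shPAX8-1 and at 13.6, 11.9, 14.7 and 11.3 TPM with shPAX8-2. The sgNTC18 libraries, at 17.5, 13.6, 17.1 and 21.8 TPM, lay below every shPAX8-1 library and overlapped the shPAX8-2 libraries. The hairpins differed 3.32-fold (log2 fold change 1.73, SE 0.19, edgeR adjusted p = 1.61e-05). The difference was 1.37 without shPAX8-1 replicates 3 and 4, 2.02 without replicates 1 and 2, and 1.30 with the GC trend removed, and it was called each time. In OS-LM1 IL18 was 46.1 ± 2.84 TPM with shPAX8-1 and 41.0 ± 5.84 with shPAX8-2, a log2 difference of 0.09 (SE 0.11, adjusted p = 0.567), beside 34.6 ± 2.50 with sgNTC18. The difference between the hairpins was itself smaller in OS-LM1 than in 786-M1A, by -1.61 on the log2 scale (SE 0.22, interaction adjusted p = 8.78e-06), where 27.2% of all genes tested gave a called interaction and 3 of the 6 members tested did.

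IL1B was the second member with a called interaction. Its hairpin difference was 1.89-fold smaller in OS-LM1 (log2 difference -0.92, SE 0.25, edgeR adjusted p = 0.00736). For IL1A the same term was -1.24 with a wider error (SE 0.56, adjusted p = 0.103). It passed the threshold without shPAX8-2 replicate 4 of 786-M1A (-2.09, adjusted p = 0.0243) and without shPAX8-1 replicates 1 and 2 of that line (-1.68, adjusted p = 0.0129). It also did so with the replicate number as a block in the fit (-1.25, adjusted p = 0.0408), but not with the GC trend removed (-0.86, adjusted p = 0.195).

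IL1RAP, the accessory chain, stood at like levels with either hairpin. In 786-M1A the libraries were at 64.8, 63.1, 87.4 and 82.5 TPM with shPAX8-1, at 83.5, 72.2, 84.9 and 73.6 with shPAX8-2 and at 14.1, 10.2, 12.7 and 13.2 with sgNTC18. OS-LM1 libraries were at 51.5, 53.9, 53.4 and 48.1 TPM with shPAX8-1, at 55.7, 59.3, 46.2 and 51.1 with shPAX8-2 and at 10.9, 10.1, 14.3 and 11.3 with sgNTC18. The lowest hairpin library was thus well above the highest control library in both lines, and the hairpin groups overlapped. As a description, the log2 fold changes over sgNTC18 were 2.86 and 2.82 in 786-M1A and 2.47 and 2.60 in OS-LM1. Between the hairpins the log2 difference was 0.03 (SE 0.15, edgeR adjusted p = 0.877) in 786-M1A and -0.14 (SE 0.10, adjusted p = 0.326) in OS-LM1. The first value depended on the libraries and on composition: it was -0.29 (adjusted p = 0.0066) with the GC trend removed, 0.30 (adjusted p = 0.0205) without shPAX8-1 replicates 1 and 2, and -0.30 (adjusted p = 0.0614) without replicates 3 and 4. The OS-LM1 value passed the threshold with the GC trend removed (-0.19, adjusted p = 0.0435).

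IL1R1, the chain that binds both agonists, differed more between the lines than between the hairpins, and the gap between lines was widest in the hairpin libraries. With sgNTC18 it was at 21.1, 16.6, 18.6 and 17.2 TPM in 786-M1A and at 25.8, 22.6, 25.0 and 25.9 TPM in OS-LM1. With shPAX8-1 the 786-M1A libraries were at 11.4, 11.2, 13.4 and 12.9 TPM and the OS-LM1 libraries at 103, 133, 106 and 96.8. With shPAX8-2 they were at 15.3, 15.0, 17.99 and 15.5 TPM and at 121, 114, 99.95 and 94.6 TPM. The hairpin libraries of OS-LM1 were all above its controls, while those of 786-M1A were below or among theirs. OS-LM1 exceeded 786-M1A 1.43-fold with sgNTC18 (log2 fold change 0.51, SE 0.09, edgeR adjusted p = 1.85e-05), 8.62-fold with shPAX8-1 (3.11, SE 0.10, adjusted p = 4.25e-20) and 6.66-fold with shPAX8-2 (2.74, SE 0.10, adjusted p = 3.78e-19). Between hairpins IL1R1 was 1.32-fold lower with shPAX8-1 in 786-M1A (-0.40, SE 0.11, adjusted p = 0.00841) and not called in OS-LM1 (-0.06, SE 0.08, adjusted p = 0.637). The interaction of 0.37 (adjusted p = 0.031) was lost, with adjusted p from 0.0546 to 0.071, without any 1 of 5 libraries: 786-M1A shPAX8-1 replicate 2 or shPAX8-2 replicate 3, or OS-LM1 shPAX8-1 replicate 2 or shPAX8-2 replicate 3 or 4. It was also lost without 786-M1A shPAX8-1 replicates 1 and 2 (0.26, adjusted p = 0.12) and when genes were kept from 1 count upwards (adjusted p = 0.0656).

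The receptor chains stood in opposite order in the lines on the per-length scale. In 786-M1A with shPAX8-1, IL1R1 was at 12.2 ± 1.07 TPM and IL1RAP at 74.4 ± 12.3, and with shPAX8-2 at 15.9 ± 1.38 and 78.6 ± 6.57. In OS-LM1 with shPAX8-1, IL1R1 was at 110 ± 15.9 TPM and IL1RAP at 51.7 ± 2.63, and with shPAX8-2 at 107 ± 12.2 and 53.1 ± 5.68. With sgNTC18, IL1R1 exceeded IL1RAP in both lines, at 18.4 ± 1.99 against 12.5 ± 1.67 TPM in 786-M1A and 24.8 ± 1.53 against 11.6 ± 1.83 TPM in OS-LM1.

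The other members differed between the lines as follows. IL1B was higher in OS-LM1, 4.95-fold with shPAX8-1 (log2 fold change 2.31, SE 0.17, edgeR adjusted p = 2.44e-12) and 9.37-fold with shPAX8-2 (3.23, SE 0.19, adjusted p = 3.11e-14). IL1A was 16.6-fold higher with shPAX8-1 (4.05, SE 0.28, adjusted p = 6.21e-13) and 39.1-fold higher with shPAX8-2 (5.29, SE 0.39, adjusted p = 3.06e-12), the latter at 6.14 without 786-M1A shPAX8-2 replicate 4. These genes thus shared their direction between the lines with IL1R1. IL18 was higher in OS-LM1 with sgNTC18 (1.06, SE 0.16, adjusted p = 1.36e-06) and with shPAX8-2 (1.66, SE 0.16, adjusted p = 7.16e-10) and not called with shPAX8-1 (0.06, SE 0.15, adjusted p = 0.746). That last value became 0.40 (adjusted p = 0.0192) without 786-M1A shPAX8-1 replicates 3 and 4. IL1RAP was the member that leaned the other way. It was lower in OS-LM1 with shPAX8-1 (-0.39, SE 0.13, adjusted p = 0.00886), a call lost without 786-M1A shPAX8-1 replicate 4 (-0.28, adjusted p = 0.0556) or replicates 3 and 4 (-0.08, adjusted p = 0.579), and was at -0.25 (adjusted p = 0.079) with shPAX8-2 and -0.04 (adjusted p = 0.789) with sgNTC18. The shPAX8-2 value was called without OS-LM1 shPAX8-2 replicate 2 (-0.31, adjusted p = 0.0447). With the trend on GC content removed, IL1RAP was called lower in OS-LM1 with all 3 constructs, at -0.49 (adjusted p = 1.5e-06) with shPAX8-1, -0.62 (adjusted p = 2.74e-08) with shPAX8-2 and -0.23 (adjusted p = 0.0197) with sgNTC18.

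In the sgNTC18 libraries alone IL1A was 4.47-fold higher in OS-LM1 (log2 fold change 2.16, SE 0.53, edgeR adjusted p = 0.000947), from 67 against 10 expected counts over 4 libraries each. IL1B was 2.74-fold higher (1.45, SE 0.56, adjusted p = 0.0252), from 37 against 9 counts. That call was lost without 786-M1A replicate 1 (1.05, adjusted p = 0.0954) or 3 (0.93, adjusted p = 0.133), without OS-LM1 replicate 2 (1.36, adjusted p = 0.0551) or 4 (1.34, adjusted p = 0.0569), and with the GC trend removed (1.31, adjusted p = 0.0538). Without 786-M1A replicate 4 the values were 3.04 for IL1A and 3.06 for IL1B. Members were called in 5 of 6 cases with each construct, beside 63% of all genes tested with sgNTC18, 76.4% with shPAX8-1 and 76.9% with shPAX8-2, so most genes differed between these lines and the counts say little about the members. IL33 was among the 5 each time, although it passed the count filter over both lines only through OS-LM1, where it is high. Its calls are no support.

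IL33, a nuclear alarmin, was at the edge of detection. The 4 sgNTC18 libraries of 786-M1A held 0 expected counts, against 9, 6, 6 and 11 in OS-LM1. A total of 0 allows up to 3 counts over the 4 libraries together, and no fold is given. With shPAX8-1 it had 3, 7, 0 and 3 counts in 786-M1A and 22, 15, 28 and 26 in OS-LM1. With shPAX8-2 it had 1 in each 786-M1A library and 12, 9, 27 and 15 in OS-LM1. In TPM, OS-LM1 was at 0.66 ± 0.09 with shPAX8-1, 0.40 ± 0.12 with shPAX8-2 and 0.15 ± 0.05 with sgNTC18, and the hairpins did not differ past the threshold (log2 fold change 0.73, SE 0.33, edgeR adjusted p = 0.102). IL1RL1, its receptor, had 0 to 14 expected counts in every library and showed no order of groups at this depth.

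IL1RN, the antagonist, had its highest level in the 786-M1A control group. The 786-M1A sgNTC18 libraries held 12, 13, 17 and 1 expected counts, 43 in all, whereas the other groups held between 2 and 9 in all. Within these control libraries IL1RN thus had more counts than IL1B in all but replicate 4. The log2 ratio of IL1RN to IL1B TPM (0.1 added to both) averaged 1.41 ± 2.10 there and -1.43 ± 0.81 in the OS-LM1 controls. With shPAX8-1 and shPAX8-2 it was -7.63 ± 0.34 and -5.15 ± 0.55 in 786-M1A, and -9.88 ± 0.21 and -8.66 ± 0.27 in OS-LM1. As IL1RN was at or close to 0 in all 16 hairpin libraries, these ratios follow IL1B and the added constant. The hairpin groups did not overlap within either line (exact two-sided permutation p = 0.0286, the smallest that 4 against 4 libraries allow), and the adjusted p over the 10 ratio tests made was 0.0571, short of the threshold. Between lines the ratio was lower in OS-LM1 by 2.25 with shPAX8-1 and 3.51 with shPAX8-2 on the log2 scale, with the same exact and adjusted p. Adjusting over the 5 tests of this ratio alone, a choice made after its values were seen, gave 0.0357 for these 4 differences.

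The log2 ratio of IL1A to IL1B described whether the agonists moved together. It was -3.22 ± 0.08 with shPAX8-1 and -3.32 ± 0.33 with shPAX8-2 in OS-LM1, a difference of 0.10 (exact permutation p = 0.886). In 786-M1A it was -4.87 ± 0.50 and -4.62 ± 0.78 (exact permutation p = 0.571). The ratio was higher in OS-LM1, by 1.66 on the log2 scale with shPAX8-1 (exact p = 0.0286, adjusted p = 0.0571), and by 1.30 with shPAX8-2 (exact p = 0.0571, adjusted p = 0.0952), short of the threshold after adjustment. The second value turned to -0.71 when 1 TPM was added in place of 0.1, as IL1A was under 0.3 TPM in those 786-M1A libraries.

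The mean length of the IL1RAP transcripts, which RSEM weights by the abundance of the listed isoforms, stood apart between the lines in the hairpin libraries, a difference that was not tested. IL1RAP has 6 listed transcripts, and the gene is known to encode membrane and soluble forms. With sgNTC18 the mean length was 3548 ± 225 bases in 786-M1A and 3491 ± 132 in OS-LM1. In OS-LM1 it was 4441, 4416, 4517 and 4466 bases with shPAX8-1 and 4569, 4562, 4418 and 4465 with shPAX8-2. All 8 of these libraries lay above the 4 controls, which spanned 3352 to 3649. In 786-M1A it was 3765, 3556, 4072 and 4086 with shPAX8-1 and 3592, 3554, 3750 and 3538 with shPAX8-2, overlapping the 3262 to 3787 of the controls. Hairpins differed by 261 bases in 786-M1A (exact permutation p = 0.114) and by -43.5 in OS-LM1 (exact permutation p = 0.314), with an adjusted p of 0.686 for both over 6 tests. The lengths of IL1R1 (5013 to 5051 bases on average per group) and IL18 (1146 to 1147) moved little, and their 4 tests between hairpins gave exact permutation p from 0.343 to 1.0.

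**Figure D4:**
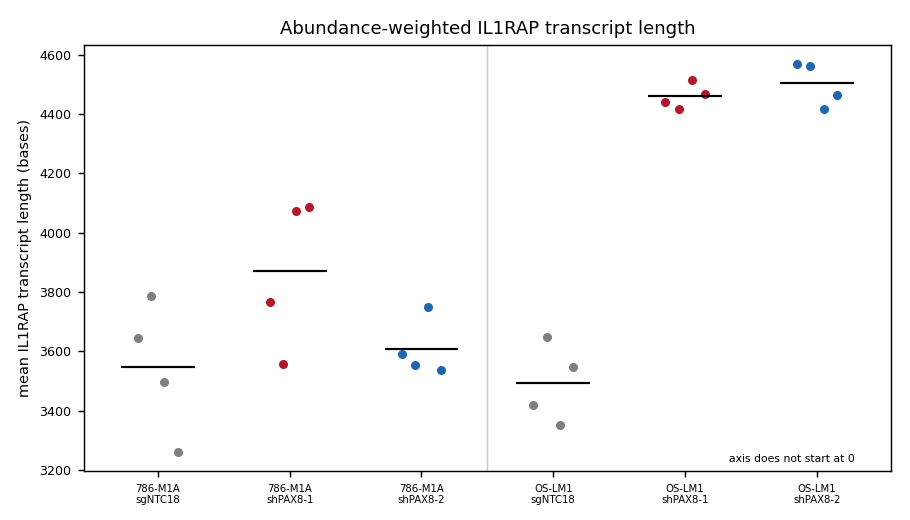
Mean IL1RAP transcript length in bases (y axis, which does not start at 0) in each library (points) with the mean of 4 (bars). The 8 hairpin libraries of OS-LM1 sit between 4416 and 4569 bases, and all other libraries between 3262 and 4086.

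IL1A, IL1B and IL1RN lie on the same arm of chromosome 2 as PAX8 itself. In RefSeq (GRCh38.p14) IL1A spans chr2:112773925-112784493, IL1B chr2:112829751-112836779, IL1RN chr2:113099360-113134014 and PAX8 chr2:113215997-113278921, which puts them 431.5, 379.2 and 82.0 kb from PAX8. IL1R1 (chr2:102070390-102179874) and IL1RL1 (chr2:102311563-102352356) lie 11036.1 and 10863.6 kb away, IL1RAP is on chromosome 3, IL18 on 11 and IL33 on 9. In the window from 500 kb beyond IL1A to 500 kb beyond PAX8, 13 genes other than IL1A, IL1B and PAX8 were tested in OS-LM1. Their log2 fold changes between hairpins ran from -0.33 to 0.61 and 4 were called, beside 29.1% of all genes. In 786-M1A 16 were tested, 10 were called beside 47.1%, and the values ran from -2.24 (RGPD8, adjusted p = 0.0694) to 1.24 (IL36G, edgeR adjusted p = 0.0459). IL1A and IL1B had the highest fold changes of this window in both lines.

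**Figure D5:**
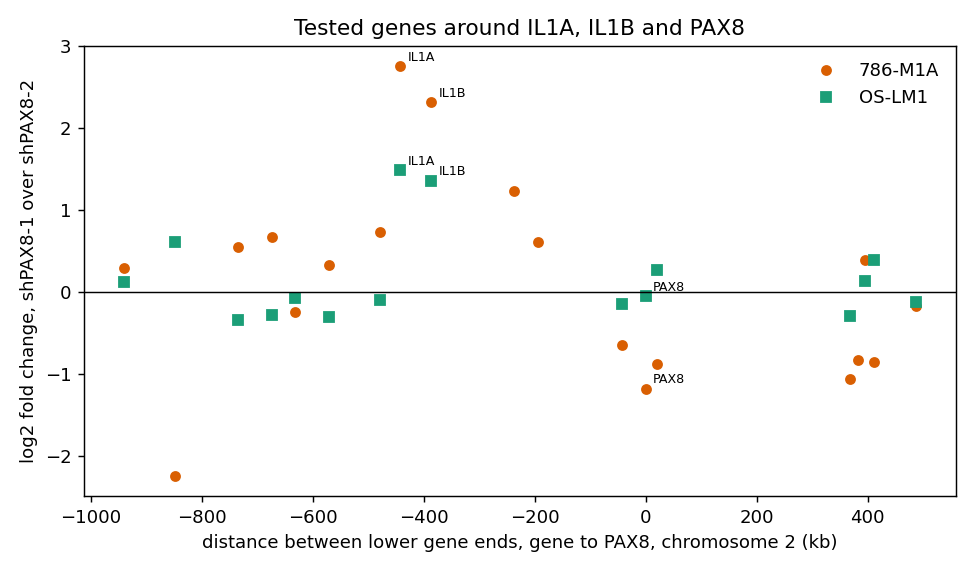
Log2 fold change of shPAX8-1 over shPAX8-2 (y axis) of each tested gene around IL1A, IL1B and PAX8 against its distance from PAX8 (x axis, kb) in 786-M1A (circles) and OS-LM1 (squares). IL1A and IL1B lie above the other genes of the window in both lines.

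The 250 bases before the start of IL1A, IL1B and IL1RAP (RefSeq, GRCh38.p14, 5′ to 3′ on the strand of the gene) are shown because these genes had the largest differences between hairpins or over the controls. Capitals mark a match to the AP-1 motif TGANTCA in IL1A and to the C/EBP motif TTGCNNAA in IL1B, searched on both strands.
IL1A (chr2:112784494-112784743): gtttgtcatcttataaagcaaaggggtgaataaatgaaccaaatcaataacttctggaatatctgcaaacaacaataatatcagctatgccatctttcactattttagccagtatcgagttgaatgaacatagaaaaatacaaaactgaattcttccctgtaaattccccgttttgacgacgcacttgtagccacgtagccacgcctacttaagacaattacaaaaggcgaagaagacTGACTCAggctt
IL1B (chr2:112836780-112837029): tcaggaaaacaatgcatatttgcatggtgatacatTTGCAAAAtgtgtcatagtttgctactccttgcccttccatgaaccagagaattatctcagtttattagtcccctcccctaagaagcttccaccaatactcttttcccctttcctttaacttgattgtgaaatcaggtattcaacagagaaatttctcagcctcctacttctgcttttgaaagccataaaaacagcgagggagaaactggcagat
IL1RAP (chr3:190513835-190514084): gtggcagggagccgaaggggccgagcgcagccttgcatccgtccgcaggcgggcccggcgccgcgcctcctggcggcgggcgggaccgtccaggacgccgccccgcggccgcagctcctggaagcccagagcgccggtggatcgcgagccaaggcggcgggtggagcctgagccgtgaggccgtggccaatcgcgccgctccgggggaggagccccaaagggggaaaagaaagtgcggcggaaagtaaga
The AP-1 match began at -12 in IL1A and the C/EBP match at -215 in IL1B, and 6.57% and 9.05% of 35116 promoters of this length hold these motifs. The core GTCANGC searched for paired-domain factors such as PAX8 had no match in the 3 windows (9.0% of promoters hold it), nor had the NF-κB consensus (9.96%). The hypoxia-response core ACGTG was found in IL1A only, at -58 (18.5% of promoters). Their GC content was 37.6%, 40.0% and 74.8%. A match is a description of these letters and was not tied to binding here.

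The genes whose levels ran most like IL1B over the 24 libraries were SERPINA5 (Pearson's r 0.982 of log2 CPM, counts scaled to the library size), TANK (0.977), MUC13 (0.975), TAB2 (0.974) and SNAI2 (0.973). For IL1RAP they were P4HA1 (0.985), TMEM189-UBE2V1 (0.981), EEF1A1 (0.981), TPST1 (0.979) and SEC24A (0.975), out of 12361 genes compared. The libraries fall into 2 lines and into control and hairpin constructs, so these values describe a shared order of 6 groups.

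Among 14 other family genes fixed as a list, IL1R2, the decoy receptor, was lower with shPAX8-1 than with shPAX8-2 in both lines (log2 fold change -0.77, edgeR adjusted p = 0.0111 in 786-M1A, and -0.61, adjusted p = 0.0149 in OS-LM1). Its level was 8.12 ± 1.03, 2.97 ± 0.93 and 5.02 ± 0.70 TPM with sgNTC18, shPAX8-1 and shPAX8-2 in 786-M1A and 9.94 ± 0.86, 3.58 ± 0.76 and 5.20 ± 0.72 TPM in OS-LM1. IL36B, an epithelial family cytokine, was at 5.56 ± 0.66 TPM in 786-M1A controls. It was at 0 to 0.71 TPM with shPAX8-1 and 0.09 to 0.28 with shPAX8-2 in that line. The log2 fold changes over sgNTC18 were -4.07 and -4.69. As IL36B was near 0 in the hairpin libraries and high only in the controls, these values are given as a description. Only 6 of the 14 genes in 786-M1A and 4 in OS-LM1 had enough counts for a test.

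Processing genes were listed as 13 caspases, inflammasome components, gasdermins and calpains. Between the hairpins 3 of the 11 tested in 786-M1A were higher and 2 lower with shPAX8-1, and 4 of 12 were higher and 0 lower in OS-LM1 (median log2 fold change 0.11 and 0.30, over all genes -0.02 and -0.03). Over all genes 24.2% were higher and 22.9% lower in 786-M1A, and 12.4% higher and 16.7% lower in OS-LM1. CASP1, which cleaves pro-IL-1β and pro-IL-18, was higher with shPAX8-1 by 0.87 in 786-M1A (edgeR adjusted p = 0.018) and by 0.50 in OS-LM1 (adjusted p = 0.0317). NLRP3, an inflammasome sensor, was higher by 0.93 (adjusted p = 0.000188) and 1.36 (adjusted p = 0.00271). Its OS-LM1 levels were low, at 0.89 ± 0.31 TPM with shPAX8-1, 0.31 ± 0.17 with shPAX8-2 and 0.48 ± 0.04 with sgNTC18. Over sgNTC18, CASP1 rose with shPAX8-1 in both lines (2.00, adjusted p = 1.44e-05 and 2.09, adjusted p = 3.14e-09), and GSDMD, the pore-forming gasdermin of pyroptosis, fell (-2.58, adjusted p = 1.18e-07 and -1.68, adjusted p = 5.38e-08). PYCARD, the inflammasome adaptor ASC, was at 16.9 ± 1.92, 12.8 ± 1.17 and 2.56 ± 0.80 TPM with shPAX8-1, shPAX8-2 and sgNTC18 in OS-LM1 and under 1 TPM in all 786-M1A libraries.

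Of the 18 signalling genes, MYD88, the adaptor of the IL-1 receptor, was lower with shPAX8-1 than with shPAX8-2, by -1.36 in 786-M1A (edgeR adjusted p = 5.60e-06) and -0.82 in OS-LM1 (adjusted p = 5.41e-06). It was at 40.5 ± 1.95, 7.44 ± 1.48 and 18.9 ± 1.88 TPM with sgNTC18, shPAX8-1 and shPAX8-2 in 786-M1A and at 26.3 ± 2.14, 15.0 ± 0.65 and 24.6 ± 1.89 TPM in OS-LM1. TAB2, a TAK1-binding protein, rose over sgNTC18 by 1.38 and 1.07 in 786-M1A (adjusted p = 3.16e-08 and 7.34e-07) and by 1.60 and 1.45 in OS-LM1 (adjusted p = 1.01e-11 and 5.33e-11) with shPAX8-1 and shPAX8-2. IKBKG went the other way, from 57.8 to 13.3 and 12.4 TPM in 786-M1A and from 34.9 to 8.11 and 7.61 in OS-LM1. Over sgNTC18 in 786-M1A, 5 of 16 tested rose and 6 fell with shPAX8-1, and 6 rose and 8 fell with shPAX8-2. In OS-LM1 10 of 17 rose and 6 fell, and 9 rose and 5 fell. Of all genes 36.1% and 31.5% rose and 34.5% and 30.9% fell in 786-M1A. In OS-LM1 35.6% and 34.3% rose and 35.8% and 34.1% fell. In OS-LM1 0 signalling genes were higher and 2 lower between the hairpins out of 17 tested, MYD88 and the kinase IRAK2 (-0.70, adjusted p = 5.77e-05), and in 786-M1A 6 were higher and 3 lower out of 16. The shares over all genes were the 12.4% higher and 16.7% lower in OS-LM1 and the 24.2% and 22.9% in 786-M1A given above.

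The 23 genes listed as IL-1 and NF-κB targets were counted in each line, and the difference between the lines in the response over sgNTC18 was not tested. Over sgNTC18 in OS-LM1, 16 of 22 tested rose and 3 fell with shPAX8-1, and 18 rose and 3 fell with shPAX8-2 (median log2 fold change 1.80 and 1.58, over all genes -0.01), where 35.6% and 34.3% of all genes rose and 35.8% and 34.1% fell. In 786-M1A 4 of 19 rose and 8 fell with shPAX8-1, and 4 rose and 12 fell with shPAX8-2 (median -0.02 and -0.72, over all genes 0.03 and 0.02), where 36.1% and 31.5% of all genes rose and 34.5% and 30.9% fell. CXCL8, a neutrophil chemokine, was at 29.1 ± 6.73, 939 ± 241 and 794 ± 138 TPM with sgNTC18, shPAX8-1 and shPAX8-2 in OS-LM1 and at 10.5 ± 1.98, 49.3 ± 17.2 and 6.19 ± 0.91 TPM in 786-M1A. CCL2, a monocyte chemokine, was at 81.3 ± 14.6, 1111 ± 168 and 2367 ± 405 TPM in OS-LM1 and at 48.8 ± 2.96, 43.2 ± 7.43 and 27.1 ± 6.71 in 786-M1A. NFKBIZ, a nuclear IκB protein, fell with both hairpins in both lines. The log2 fold changes were -1.17 and -1.17 in 786-M1A and -1.68 and -1.44 in OS-LM1 (edgeR adjusted p from 4.49e-09 to 7.87e-08). The myeloid marker sum given above rose beside these genes in OS-LM1, and its part in them was not tested.

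Between the hairpins, 11 of 19 target genes were higher and 2 lower with shPAX8-1 in 786-M1A (median log2 fold change 0.67, over all genes -0.02), where 24.2% of all genes were higher and 22.9% lower. CXCL8 led them (2.99, edgeR adjusted p = 8.01e-07), followed by CSF2, a myeloid growth factor (2.28, adjusted p = 4.01e-05), and BIRC3, an apoptosis inhibitor (2.26, adjusted p = 5.90e-06). Over sgNTC18 in that line, CXCL8 rose with shPAX8-1 (log2 fold change 2.38) and fell with shPAX8-2 (-0.61). CSF2 fell with both hairpins, by -2.39 with shPAX8-1 and -4.68 with shPAX8-2. BIRC3 fell with shPAX8-2 (-1.98) and was not called with shPAX8-1 (0.28, edgeR adjusted p = 0.231). In OS-LM1 8 of 22 target genes were higher and 8 lower with shPAX8-1 than with shPAX8-2 (median -0.01). There 12.4% of all genes were higher and 16.7% lower. The collagenase MMP1 (4.98, adjusted p = 3.49e-14) and the stromelysin MMP3 (3.71, adjusted p = 1.38e-14) were far higher with shPAX8-1 there, and the acute-phase proteins SAA1 (-1.88, adjusted p = 2.54e-10) and SAA2 (-1.94, adjusted p = 3.67e-06) and CCL2 (-1.17, adjusted p = 6.95e-05) were lower. SAA1 and SAA2 are near-identical copies whose reads the counting may split. The difference between the lines in this hairpin comparison was called for 12 of 22 target genes, 2 higher and 10 lower in OS-LM1, beside 12.7% and 14.5% of all genes. TNFAIP3, a brake on NF-κB, was among the latter (-1.90, interaction adjusted p = 2.62e-08). Counted over all 4 pathway lists, 37 of 52 and 42 of 52 tested genes were called over sgNTC18 in 786-M1A and 44 of 55 and 42 of 55 in OS-LM1, for shPAX8-1 and shPAX8-2. These were 71.2%, 80.8%, 80.0% and 76.4% of the pathway genes tested, beside 70.6%, 62.5%, 71.4% and 68.4% of all genes.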

How the data were processed

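RNA was sequenced in 24 libraries made, per the labels, with a KAPA stranded mRNA kit. The study's methods name Lexogen kits instead, and which kit made which libraries is not settled here. The submitters' processing notes name RSEM, Bowtie2 and hg38. The deposited tables hold RSEM expected counts, TPM, FPKM and mean transcript length per RefSeq gene, as made by the authors. Effective length equalled length for all genes, so TPM was not corrected for fragment size. The members and all gene lists were chosen with earlier results of these data known.

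Expected counts were rounded, filtered with filterByExpr, scaled by TMM and tested with edgeR 4.0.16 (robust quasi-likelihood, Benjamini-Hochberg adjustment over all genes tested, threshold 0.05), over 12 libraries for comparisons within a line and 24 for those across lines. The edgeR steps were tested on simulated data. No pair of replicates agreed within sampling noise. Transcript lengths (members with an expected count of at least 50 in every library compared and more than 1 transcript) and log2 TPM ratios (pseudocount 0.1) were compared by exact two-sided permutation tests.

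Named genes were the 8 members, PAX8, up to 3 called genes per list and direction by fold change, the 5 genes most correlated with IL1B and with IL1RAP, and markers of other cell types above 1 TPM. RGPD8, and CASP1 between the hairpins in OS-LM1, were named outside that rule after their values were seen. Alternatives were DESeq2 1.42.0, its size factors, no count filter, removal of a per-library spline of log count on GC content, a replicate block, a stricter threshold, other pseudocounts, FPKM and leaving out libraries.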

Additional observations from a re-analysis of the deposited data

Results flagged for a closer look

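In 3 members the difference between the hairpins itself differed between the lines by the interaction test of edgeR: IL18 (-1.61 on the log2 scale, adjusted p = 8.78e-06), IL1B (-0.92, adjusted p = 0.00736) and IL1R1 (0.37, adjusted p = 0.031, lost without any 1 of 5 libraries). For IL18 and IL1B the excess with shPAX8-1 was smaller in OS-LM1. PAX8 did not differ past the threshold between the hairpins there, and its part in these interactions was not tested.

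In 4 of 35 groups of 4 libraries 1 library lay far from the other 3 by Dixon's criterion, where chance gives about 1 in 20, or 1.8 groups. IL1A was at 0.27 TPM in replicate 4 of 786-M1A with shPAX8-2, its highest library, and at 0.20 TPM in replicate 1 of OS-LM1 with sgNTC18, its lowest. IL1R1 was at 17.99 TPM in replicate 3 of 786-M1A with shPAX8-2, its highest library. IL18 was at 30.9 TPM in replicate 1 of OS-LM1 with sgNTC18, its lowest library.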

How the results depend on the processing

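The 168 recounts of called members and pathway genes stayed within 1.5 times the reported count. Leaving out 1 library at a time gave 4 members called between the hairpins in 786-M1A, 2 in OS-LM1, and 2 to 4 for the interaction. Same-numbered hairpin libraries tended to correlate in 786-M1A (mean 0.269 against -0.091 for other pairs, 3 of 4 over 0.1). In OS-LM1 they did not (mean -0.12 against 0.041, 1 over 0.1). The fit with a replicate block called 4 and 2 members between the hairpins. It ended the calls between lines of IL1B with sgNTC18 (edgeR adjusted p = 0.0587) and IL1RAP with shPAX8-1 (0.084) and added the IL1A interaction (0.0408). Of single-gene values, 842 of 936 were unchanged in direction and call or moved within the spread.

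IL1RAP turned sign between the hairpins in 786-M1A with the GC trend removed (-0.29), with the replicate block and GC (-0.29), without replicates 3 and 4 of shPAX8-1 (-0.30) and without 1 of 4 libraries (leaving out each library gave -0.073 to 0.147). Its interaction turned to 0.12 (GC), 0.13 (block and GC) and 0.20 (without that pair), and its line difference with sgNTC18 to 0.0068 without 786-M1A replicate 1 (range -0.14 to 0.0068). The IL18 values that turned were those over sgNTC18 with shPAX8-2 in OS-LM1 (-0.0125 with GC, -0.0134 with GC and the block) and between lines with shPAX8-1 (-0.0415 with GC, -0.0656 and -0.0326 without replicate 1 or 2, -0.25 without both). The IL33 interaction became 0.36 without that last pair.

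With a pseudocount of 1 the log2 IL1RN to IL1B ratios passed the threshold (-2.15 and -1.40 between hairpins in 786-M1A and OS-LM1, -2.30 and -3.05 between lines with shPAX8-1 and shPAX8-2), as they did, at -2.48, -1.22, -2.25 and -3.51, when adjusted over 5 tests, an alternative chosen after seeing the data. The IL1A to IL1B ratio with that pseudocount was -1.47 between hairpins in 786-M1A and 0.71 between lines with shPAX8-1, both called, and turned to -0.0469 between hairpins in OS-LM1 and -0.71 between lines with shPAX8-2. A pseudocount of 0.01 turned it to 0.55 in 786-M1A and to -0.0534 between lines with sgNTC18. Without 1 library these IL1A ratios ranged from -0.49 to 0.13, -0.0615 to 0.17 and -0.0311 to 0.49, the ratio between lines with shPAX8-2 from 1.13 to 1.68, and the IL1RN ratio between lines with sgNTC18 from -3.87 to -2.39. Lengths ranged from -0.40 to 1.11 and -0.0292 to 0.43 bases for IL18, and from -12.4 to 1.79 for IL1R1 in OS-LM1. The cause of these changes was not tested.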
